A study of Homo sapiens with 8 samples.

Results

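NKRF peaks were examined at 32 genes of mesenchymal transition, matrix invasion and TGF-beta signalling, taken by name from a list that was drawn up with earlier results of these data known. They were set against the 20001 other RefSeq protein-coding genes on chromosomes 1 to 22, X and Y. Chromatin immunoprecipitation followed by sequencing (ChIP-seq) with an antibody against NKRF, a factor that represses NF-kB target genes, was done in MDA-MB-231-P3 cells. The P3 cells are a strongly metastatic derivative of MDA-MB-231, an established triple-negative breast cancer cell line. The control group (2 libraries) received control siRNA and the si-Uc003xsl.1 group (2 libraries) received siRNA targeting Uc003xsl.1, a long non-coding RNA that the series title describes as a decoy for NKRF. The comparison asks where NKRF was found with and without that RNA being targeted. All libraries came from 1 cell line, nothing in the labels says that replicates were separate cultures, and no file used here gives the amount of Uc003xsl.1 in either group. Peak lists hold no expression values, so the cell type label could not be checked against marker genes.

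In mesenchymal transition, epithelial cells lose E-cadherin junctions, take on N-cadherin and vimentin, and become able to move through matrix. Transcription factors of the SNAI, ZEB and TWIST families drive the change by binding E-box sequences. TGF-beta ligands are a main inducer, acting through paired receptor kinases that phosphorylate SMAD2 and SMAD3. MDA-MB-231 cells already have a mesenchymal appearance and are a common model of invasion.

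The libraries held 8250475 to 19335431 NKRF tags after duplicate removal and gave lists of 902 to 7577 peaks. Control replicate 2 was called by a newer program release from longer tags under a q-value threshold, and its height is the pileup at the summit rather than the tags in the peak, so in the control group replicate and processing cannot be told apart. For control replicate 1 the caller estimated the false discovery rate at 100% at all peaks. For si-Uc003xsl.1 replicates 1 and 2 the median rate over all peaks was 30.75% and 10.96%, and the smallest was 10% and 0%. The p-values reflect variation among these 4 libraries alone, and that variation may be technical. Within a list, "a peak at a gene" means that a peak summit lay in the gene body or within 10 kb of either end.

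NKRF peaks lay at 18 of the 32 genes (56.2%) in at least 1 of the 4 lists, against 40.7% of other genes. In control replicate 1 there were 10 genes (31.2%, exact Clopper-Pearson 95% interval 16.1 to 50), against 11.7% of other genes. Control replicate 2 had 2 genes (6.25%, interval 0.766 to 20.8), against 2.57%. Si-Uc003xsl.1 replicate 1 had 6 genes (18.8%, interval 7.21 to 36.4), against 23.0%, and replicate 2 had 11 genes (34.4%, interval 18.6 to 53.2), against 17.1%. The listed genes thus had the higher share in 3 lists and the lower share in 1, and the si-Uc003xsl.1 libraries fell on either side of the background. The lower share in si-Uc003xsl.1 replicate 1 depended on the window: it was 18.8% against 15.7% in gene bodies alone, 18.8% against 17.8% with flanks of 1 kb, and 43.8% against 42.1% with flanks of 50 kb. The share in si-Uc003xsl.1 replicate 2 depended on it as well. It was 6 genes (18.8%, against 11.5%) in gene bodies alone and 8 (25%, against 13%) with flanks of 1 kb. With flanks of 50 kb it was 13 (40.6%, against 31.3%). The intervals cover counting error only.

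**Figure D1:**
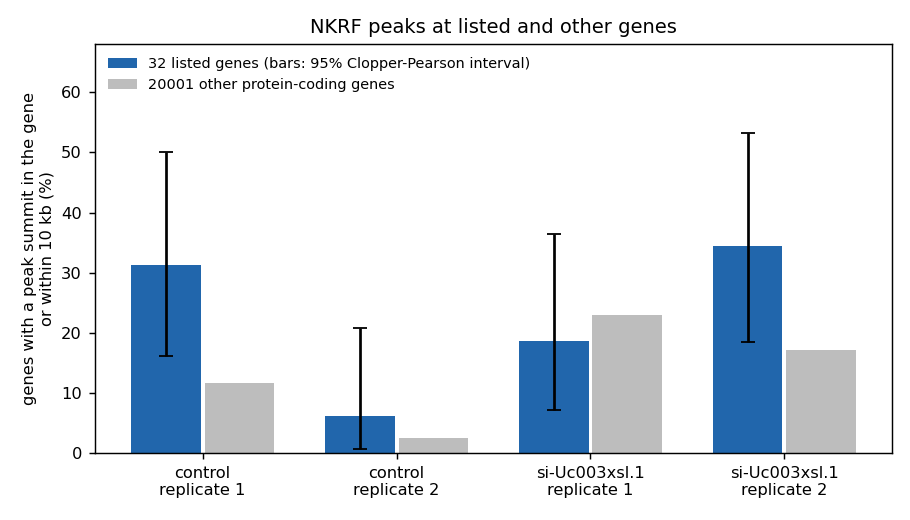
Share of genes (%) with a peak summit in the gene or within 10 kb, for the 32 listed genes (blue, error bars are exact Clopper-Pearson 95% intervals) and the 20001 other protein-coding genes (grey), in each of the 4 libraries. The blue bar is above the grey bar in 3 libraries and below it in si-Uc003xsl.1 replicate 1, at 18.8% against 23.0%.

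The share of listed genes with a peak did not separate the conditions. The controls averaged 18.75% ± 17.7 (SD, n = 2) and the si-Uc003xsl.1 libraries 26.6% ± 11 (SD, n = 2). Their difference of 7.81 percentage points is smaller than either SD (two-sided exact permutation p = 0.667; with this design no p can go below 0.333). The difference was 1.56 points in gene bodies alone, -4.69 points without control replicate 2 and 0 without si-Uc003xsl.1 replicate 2. Other genes went from 7.16% ± 6.49 to 20.1% ± 4.20, without overlap between the groups (exact permutation p = 0.333). Subtracting the other genes within each library left the listed genes ahead by 11.6 points ± 11.2 (SD, n = 2) in the controls, and by 6.49 ± 15.2 with Uc003xsl.1 targeted (exact permutation p = 0.667). That difference of -5.10 points turned to 2.81 without control replicate 1 and to 5.69 without si-Uc003xsl.1 replicate 1.

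Long genes hold more peaks, and the listed genes are long. Their median length was 54.2 kb, with a range from 2.19 kb at S100A4 to 244 kb at CDH2, against 24.1 kb for other genes. Of the 12 listed genes of 80 kb or more, 7 (58.3%) had a peak in control replicate 1, against 34.0% of 4173 other genes of that length. In si-Uc003xsl.1 replicate 2 it was 6 of 12 (50%) against 29.4%, in replicate 1 it was 2 of 12 (16.7%) against 42.9%, and in control replicate 2 it was 2 of 12 (16.7%) against 7.67%. For a peak in at least 1 list, it was 8 of 12 (66.7%) against 69.3% at this length. At 20 to 80 kb it was 6 of 11 (54.5%) against 41.7%, and under 20 kb it was 4 of 9 (44.4%) against 26.7%. Counted per megabase of gene plus flanks, the listed genes held 5.15 and 0.736 peaks in control replicates 1 and 2 and 2.58 and 4.42 in si-Uc003xsl.1 replicates 1 and 2. Other genes held 2.44, 0.327, 3.17 and 2.14 peaks per megabase in the same order. With flanks of 10 kb, the order of listed and other genes was therefore the same per gene and per megabase in each library. Listed genes were lower in si-Uc003xsl.1 replicate 1. In that library, with gene bodies alone and with 1 kb flanks, listed genes were higher per gene but lower per megabase. The values per megabase were 2.89 against 3.08 in gene bodies and 3.27 against 3.30 with 1 kb flanks. Per megabase, the listed genes differed by 0.55 between conditions, which is less than the replicate SDs of 3.12 in controls and 1.30 after si-Uc003xsl.1 (exact permutation p = 1), and by -1.66 without control replicate 2 and -0.37 without si-Uc003xsl.1 replicate 2.

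**Figure D2:**
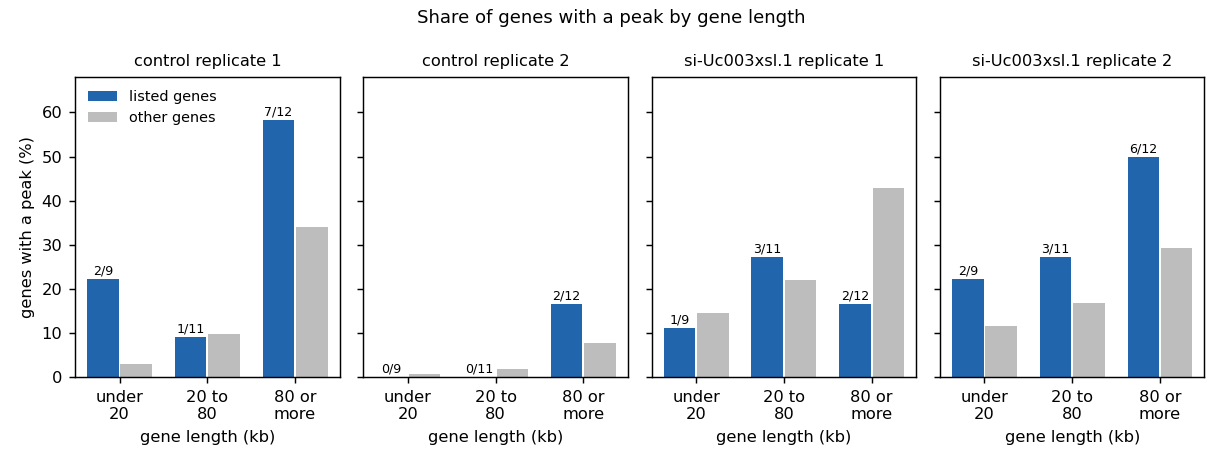
Share of genes (%) with a peak by gene length (under 20 kb, 20 to 80 kb, 80 kb or more) in each library, for listed genes (blue, with the number of genes above each bar) and other protein-coding genes (grey). Among other genes the share rises with length in all 4 libraries, and the blue bars rest on 9, 11 and 12 genes.

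The 35 peaks at listed genes mostly lay at different positions from list to list. Control replicates 1 and 2 held 14 and 2 of them, and si-Uc003xsl.1 replicates 1 and 2 held 7 and 12. Among all pairs of these peaks from different lists, 1 pair overlapped, and it lay at TGFB1. Overlaps between lists were not counted for peaks at other genes, so this number has no background beside it. At 4 listed genes a peak occurred in both si-Uc003xsl.1 lists: CD44, CDH2, MMP14 and TGFB1 (12.5%, against 6.18% of other genes). Of these, MMP14 and TGFB1 had no peak in either control list (6.25%, against 4.32%), while CDH2 and ZEB1 had peaks in both control lists (6.25%, against 0.965%). At 80 kb or more, 2 of 12 listed genes (16.7%) were in both si-Uc003xsl.1 lists, against 16.2% of other genes. It was 1 of 11 (9.09%) against 4.77% at 20 to 80 kb, and 1 of 9 (11.1%) against 2.63% under 20 kb.

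**Figure D3:**
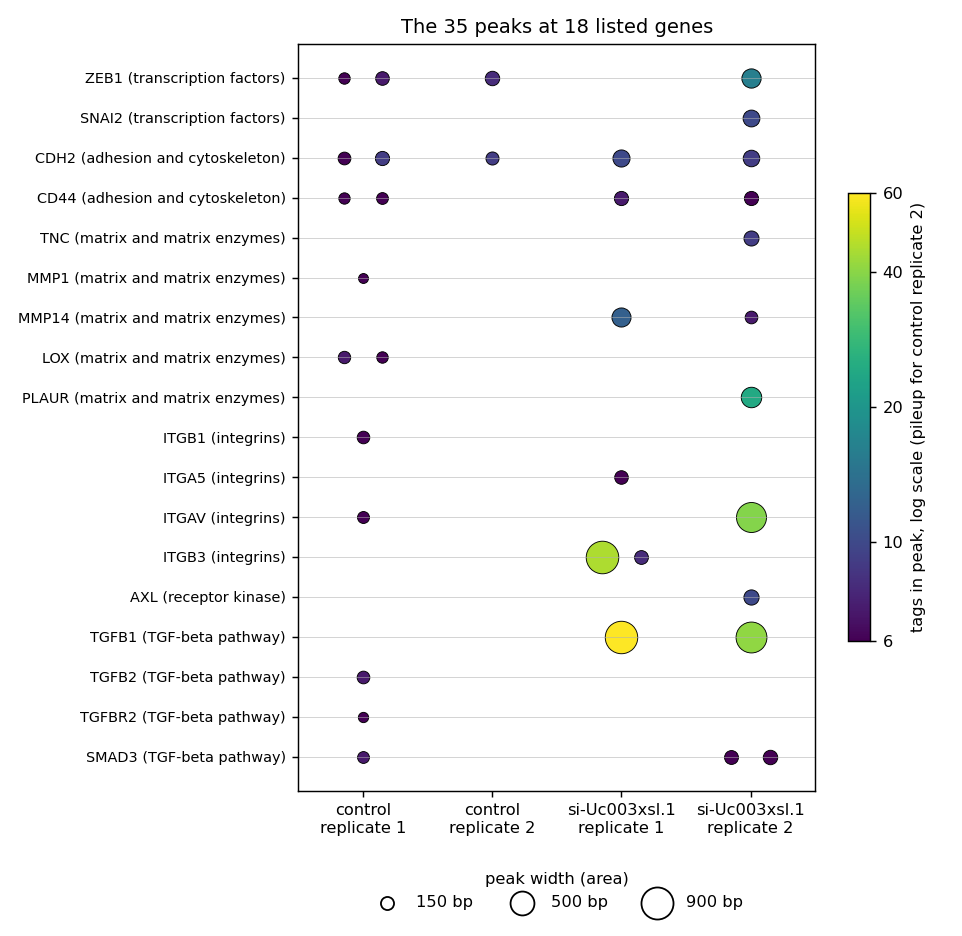
Each circle is 1 peak at 1 of the 18 listed genes with a peak (rows, with the role of the gene) in 1 of the 4 libraries (columns). The area shows the peak width in bp and the colour the number of tags in the peak on a log scale, or the summit pileup for control replicate 2. The widest circles are at TGFB1, ITGB3 and ITGAV and belong to the si-Uc003xsl.1 libraries.

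TGFB1 encodes the cytokine transforming growth factor beta 1 and was the listed gene with the most tags. Control replicates 1 and 2 had no peak closer than 383 kb and 3529 kb to it. In si-Uc003xsl.1 replicate 1 a peak of 924 bp with 60 tags covered positions 41353317 to 41354240 of chromosome 19, its summit 507 bp downstream of the RefSeq start site. In replicate 2 a peak of 836 bp with 41 tags spanned 41352635 to 41353470, with its summit 1033 bp downstream of that site. The peaks overlapped by 154 bp, and relative to sequencing depth they held 3.18 and 3.61 tags per 1000000 filtered tags. The peak of replicate 1 covered the start site and that of replicate 2 lay wholly downstream of it, and the control lists had neither. Within their own lists these were not among the strongest by p-value, at percentiles 75.0 and 18.6, and the caller gave them false discovery rates of 32% and 11.35%. Neither was kept when each list was cut to its top 902 peaks, the length of the shortest list. An end of another gene, B9D2, lay 1002 bp from the summit of replicate 1 and 1528 bp from that of replicate 2.

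Among the 23 listed genes with a promoter window of 300 bases (250 before to 50 after the start), a peak touched those of TGFB1, ITGAV and TNC. ITGB3 had no window and could not be included. The 250 bases before the start site are shown for TGFB1, ITGAV and TNC. They are RefSeq sequences on GRCh38.p14, printed 5′ to 3′ on the strand of the gene. Capitals mark GC boxes (GGGCGG), E-boxes (CANNTG) and the SMAD-binding letters CAGAC, on either strand, and these motifs did not overlap each other.
TGFB1, chr19:41353923-41354172, minus strand: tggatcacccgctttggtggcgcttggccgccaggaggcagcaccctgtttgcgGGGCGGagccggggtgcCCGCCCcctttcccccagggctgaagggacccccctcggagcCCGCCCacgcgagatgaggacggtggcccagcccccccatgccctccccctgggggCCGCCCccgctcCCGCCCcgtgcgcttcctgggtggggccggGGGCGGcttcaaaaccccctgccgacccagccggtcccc
ITGAV, chr2:186589806-186590055, plus strand: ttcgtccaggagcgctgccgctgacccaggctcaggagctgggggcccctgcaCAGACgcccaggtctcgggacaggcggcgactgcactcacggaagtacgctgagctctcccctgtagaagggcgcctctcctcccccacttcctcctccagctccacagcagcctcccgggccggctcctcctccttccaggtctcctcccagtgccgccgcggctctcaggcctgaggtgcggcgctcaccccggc
TNC, chr9:115118158-115118407, minus strand: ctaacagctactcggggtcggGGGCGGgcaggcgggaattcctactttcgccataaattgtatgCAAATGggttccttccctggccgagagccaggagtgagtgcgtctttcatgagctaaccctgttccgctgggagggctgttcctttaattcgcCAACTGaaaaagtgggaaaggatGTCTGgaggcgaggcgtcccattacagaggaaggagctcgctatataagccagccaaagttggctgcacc
All 250 bases of TGFB1 lay in the peak of si-Uc003xsl.1 replicate 1, and all 250 of ITGAV in a peak of replicate 2. At TNC none of these bases did, since its peak reached only 22 bases of the 50 after the start. The TGFB1 stretch was 76.8% G or C with 6 GC boxes and 0 E-boxes, and it held 1 match to the NF-kB consensus. That of ITGAV was 70.8% G or C with 0 GC boxes and 0 E-boxes, and that of TNC was 54.8% with 1 GC box and 2 E-boxes.

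Other genes of the TGF-beta pathway on the list had narrow peaks inside the gene body. TGFB2, another TGF-beta ligand, had a peak of 141 bp with 7 tags in control replicate 1, 7632 bp inside the distal end of the gene. TGFBR2, the type II receptor, had a peak of 93 bp with 6 tags in control replicate 1, 27236 bp downstream of the start. SMAD3, the receptor-activated SMAD, had 1 peak in control replicate 1 (123 bp, 7 tags) and 2 in si-Uc003xsl.1 replicate 2 (169 and 183 bp, 6 tags each), at 47025, 28495 and 38904 bp downstream of the start. No position recurred among these peaks, and all had 6 or 7 tags, at or next to the smallest count of their lists. TGFBR1, the type I receptor, and SMAD2 had no peak in any list.

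Some genes of the TGF-beta pathway outside the list of 32 had peaks as well. Of 39 such genes, 5 (12.8%) and 1 (2.56%) had a peak in control replicates 1 and 2, and 9 (23.1%) and 10 (25.6%) in si-Uc003xsl.1 replicates 1 and 2. The background shares of 11.7%, 2.57%, 23.0% and 17.1% lie close to the first 3 of these and below the fourth. BMPR1A, LTBP1, LTBP3 and SMURF1 had one in both si-Uc003xsl.1 lists (10.3%, against 6.18%). LTBP1 also had peaks in control replicate 1. BMPR1A, LTBP1 and SMURF1 are over 80 kb, and of other genes of 80 kb or more 16.2% were in both si-Uc003xsl.1 lists. A summit within 1 kb of a gene end occurred at 4 of the 39 in each si-Uc003xsl.1 list, against 6.54% and 5.28% of other genes, and at none of them in both. The widest was at SKIL, which encodes a SMAD corepressor, with 1730 bp and 82 tags in si-Uc003xsl.1 replicate 2, 932 bp upstream of its start. ENG, the co-receptor endoglin, had 705 bp and 40 tags in replicate 2, 50 bp inside its start, and BMPR1A, a receptor for bone morphogenetic proteins, had 680 bp and 46 tags in replicate 1, 517 bp inside its start. SMAD7, an inhibitory SMAD, and SMURF1, a ubiquitin ligase acting on SMADs and receptors, had peaks of 305 bp with 12 tags and 492 bp with 23 tags in replicate 2, both within 1 kb of the start. THBS1, an activator of latent TGF-beta, had 529 bp and 29 tags in replicate 1, 678 bp upstream of its start. In controls, TGIF1 had the only peak within 1 kb of a gene end among these 39 genes, 106 bp wide with 6 tags.

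Integrins, the cell surface receptors for matrix, held 2 of the 4 widest peaks. ITGAV, the alpha V subunit that pairs with several beta chains and can activate latent TGF-beta, had a peak of 789 bp with 39 tags in si-Uc003xsl.1 replicate 2, at 186589650 to 186590438 on chromosome 2. Its summit lay 183 bp upstream of the start, and at percentile 98.3 of its list it had the smallest p-value, relative to its list, of all 35 peaks. The caller nevertheless gave this peak a false discovery rate of 29.87%, the highest of the 12 peaks at listed genes in that list. Control replicate 1 had a narrow peak of 125 bp with 6 tags at ITGAV, 5366 bp downstream of the start, while in si-Uc003xsl.1 replicate 1 the nearest peak was 112 kb away. ITGB3, the beta 3 partner of alpha V, had a peak of 930 bp with 45 tags in si-Uc003xsl.1 replicate 1, at 47253519 to 47254448 on chromosome 17, 23 bp outside a gene end. A further peak of that library, 167 bp wide with 8 tags, lay 23736 bp inside ITGB3. In si-Uc003xsl.1 replicate 2 the nearest peak was 218 kb from ITGB3. Each of these wide peaks was therefore found in 1 library and not in its replicate.

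The other integrin genes showed little. ITGB1, the common beta 1 chain, had a peak of 139 bp with 6 tags in control replicate 1, 4714 bp beyond the distal end of the gene. ITGA5, the fibronectin receptor subunit, had a peak of 162 bp with 6 tags in si-Uc003xsl.1 replicate 1. ITGA6, a laminin receptor subunit, had none within 63.3 kb. AXL, a receptor tyrosine kinase linked to invasion, had a peak of 203 bp with 10 tags in si-Uc003xsl.1 replicate 2, 5917 bp downstream of its start.

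Matrix genes and matrix enzymes had peaks at 5 of 10 members in at least 1 list, against 40.7% of other genes, and at MMP14 in more than 1 list. MMP14, a membrane-anchored metalloproteinase that cleaves collagen and activates MMP2, had a peak of 320 bp with 12 tags in si-Uc003xsl.1 replicate 1, 1755 bp inside the distal end of the gene. Its peak in replicate 2, of 141 bp with 7 tags, lay 6503 bp upstream of the start. This second summit was inside the neighbouring gene MRPL52, 195 bp from an end of that gene. PLAUR, the urokinase receptor, had a peak of 368 bp with 24 tags in si-Uc003xsl.1 replicate 2, 5774 bp beyond its distal end and inside CADM4, 1663 bp from an end of it. These summits are thus closer to an end of another gene than to the listed one. The same was true of 1 peak each at LOX and TGFBR2.

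TNC, the matrix glycoprotein tenascin C, had a peak of 199 bp with 9 tags in si-Uc003xsl.1 replicate 2, 103 bp downstream of its start. In si-Uc003xsl.1 replicate 1 the nearest summit was 491 kb from the gene. In control replicates 1 and 2 it was 77.1 kb and 3398 kb from the gene. LOX, a collagen and elastin cross-linking enzyme, had 2 peaks in control replicate 1, of 135 bp with 7 tags (1624 bp inside the gene, and also inside SRFBP1) and of 115 bp with 6 tags (9793 bp upstream). MMP1, an interstitial collagenase, had a peak of 86 bp with 6 tags in control replicate 1, 1669 bp inside the gene. FN1, SPARC, MMP2, MMP3 and LOXL2 had none in any list. Of 42 further matrix and invasion genes, 6 (14.3%) and 1 (2.38%) had a peak in control replicates 1 and 2, and 13 (31.0%) and 9 (21.4%) in si-Uc003xsl.1 replicates 1 and 2, against backgrounds of 11.7%, 2.57%, 23.0% and 17.1%. COL5A1, COL5A2, FAP, LAMA3 and LAMB3 had one in both si-Uc003xsl.1 lists (11.9%, against 6.18%). COL5A2 and LAMA3 also had peaks in control replicate 1. COL5A1, COL5A2 and LAMA3 are over 80 kb, and of other genes of 80 kb or more 16.2% were in both si-Uc003xsl.1 lists. A summit within 1 kb of a gene end occurred at 4 and 1 of the 42 in si-Uc003xsl.1 replicates 1 and 2, against 6.54% and 5.28% of other genes. Wide peaks within 1 kb of an end were at the neighbouring collagen genes COL4A1 and COL4A2, which shared a peak of 678 bp with 43 tags in replicate 1, at LOXL4 (552 bp, 29 tags, replicate 1) and at the protease inhibitor gene TIMP2 (758 bp, 46 tags, replicate 2).

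CDH2, which encodes N-cadherin, was the listed gene with a peak in all 4 lists (1 of 32, 3.12%, against 0.310% of other genes). The other genes with this property are very long: the median of those 62 was 653 kb, and 8 of them were shorter than CDH2. Among genes of 80 kb or more, 1 of 12 listed and 1.49% of other genes were in all 4 lists. Control replicate 1 had peaks of 143 bp with 6 tags and 177 bp with 9 tags, 236208 and 62708 bp downstream of the start, and control replicate 2 had 1 of 150 bp with a pileup of 9, 206608 bp downstream. After si-Uc003xsl.1 the peaks lay on either side of the start: that of replicate 1 (257 bp, 10 tags) at 28175724 to 28175980 on chromosome 18, 1306 bp downstream, and that of replicate 2 (241 bp, 9 tags) at 28177999 to 28178239, 979 bp upstream. The control peaks of CDH2 were thus far from its start, 1 of them 8043 bp from its distal end, and the si-Uc003xsl.1 peaks near its start, with no overlap between any of the 5. CDH2 was in 3 lists with summits in the gene body alone and in 2, both control lists, with lists of equal length. The closest other protein-coding gene, CHST9, was 755614 to 992801 bp away.

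CD44, the hyaluronan receptor, had peaks in 3 lists, all of 113 to 177 bp with 6 or 7 tags. In control replicate 1 they lay 6224 bp upstream and 28805 bp downstream of the start, in si-Uc003xsl.1 replicate 1 at 19128 bp downstream, and in replicate 2 at 45840 bp downstream. Without peaks at the smallest tag count, CD44 kept 1 list. VIM (vimentin), CDH1 (E-cadherin) and S100A4, a calcium-binding protein of motile cells, had no peak in any list.

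Among the transcription factors, ZEB1 and SNAI2 had peaks and ZEB2, SNAI1 and TWIST1 had none. ZEB1, a repressor of CDH1, had 2 peaks in control replicate 1 (115 bp with 6 tags and 163 bp with 7 tags) and 1 in control replicate 2 (183 bp, pileup 8), between 134841 and 177345 bp downstream of its start. Si-Uc003xsl.1 replicate 2 had a peak of 325 bp with 16 tags 43739 bp downstream, at 31361925 to 31362249 on chromosome 10, and replicate 1 had none within 230 kb. CD44, CDH2 and ZEB1 were the 3 listed genes in 3 or more lists (9.38%, against 2.22% of other genes). All 3 are over 80 kb, and among genes of 80 kb or more they made up 3 of 12 (25%), against 9.87% of other genes. SNAI2, a repressor of epithelial genes, had a peak of 248 bp with 10 tags in si-Uc003xsl.1 replicate 2, 7072 bp outside the gene. Of 29 further epithelial and mesenchymal genes, 4 (13.8%) and 1 (3.45%) had a peak in control replicates 1 and 2, and 6 (20.7%) and 7 (24.1%) in si-Uc003xsl.1 replicates 1 and 2, against backgrounds of 11.7%, 2.57%, 23.0% and 17.1%. CDH11 and WNT5A were in both si-Uc003xsl.1 lists (6.90%, against 6.18%). CDH11, which is over 80 kb, also had a peak in control replicate 2. A summit within 1 kb of a gene end occurred at 2 and 3 of the 29 in si-Uc003xsl.1 replicates 1 and 2, against 6.54% and 5.28% of other genes. CLDN1, a tight junction gene, had a peak of 592 bp with 42 tags 89 bp upstream of its start in si-Uc003xsl.1 replicate 1 and none in replicate 2. It also had one of 144 bp with 6 tags in control replicate 1, 6728 bp upstream. CTNNB1, which encodes beta-catenin, had one of 503 bp with 21 tags 547 bp inside its start in si-Uc003xsl.1 replicate 2.

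Peaks at listed genes in the si-Uc003xsl.1 libraries included wide peaks and peaks at gene ends, and those in the control libraries did not. Peaks of at least 300 bp lay at 3 listed genes (ITGB3, MMP14 and TGFB1) in the first si-Uc003xsl.1 library (9.38%, against 8.94% of other genes) and at 4 (ITGAV, PLAUR, TGFB1 and ZEB1) in the second (12.5%, against 7.07%). Control replicates 1 and 2 had 0 such listed genes, against 0% and 0.0350% of other genes. The difference of 10.9 percentage points separated the groups without overlap (exact permutation p = 0.333). A summit within 1 kb of a gene end was found at 2 listed genes in si-Uc003xsl.1 replicate 1 (6.25%, against 6.54%), TGFB1 and ITGB3, and at 3 in replicate 2 (9.38%, against 5.28%), CDH2, ITGAV and TNC. Controls had 0 such listed genes, against 0.530% and 0.115% of other genes, and the difference was 7.81 points (exact permutation p = 0.333). In both measures the listed genes were near the background in replicate 1 and above it in replicate 2, there on counts of 4 and 3 genes, and other genes were also higher in both si-Uc003xsl.1 lists than in either control list. The fragment length used by the caller was 49 and 150 bp in the controls and 60 and 67 bp after si-Uc003xsl.1, and its part in peak width was not tested.

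**Figure D4:**
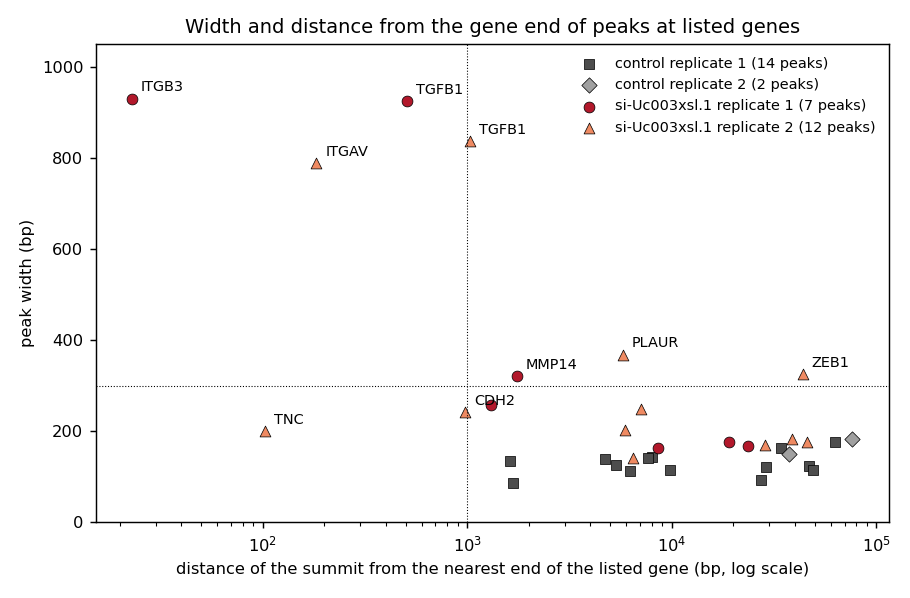
Width of each of the 35 peaks (bp) against the distance of its summit from the nearest end of the listed gene (bp, log scale), with a symbol per library. Dotted lines mark 300 bp and 1 kb. The peaks of at least 300 bp at ITGB3, TGFB1 and ITGAV, all from si-Uc003xsl.1 libraries, are 789 to 930 bp wide. The 16 control peaks are 86 to 183 bp wide.

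Promoter windows were found in the RefSeq table for 23 of the 32 genes. CDH1, ITGB3, LOXL2, MMP1, MMP2, MMP3, SNAI1, SNAI2 and TWIST1 had no entry. Their median share of G and C was 63.3% with a median of 18 CpG, against 62.7% and 22 for all 15842 windows. Windows with a summit within 1 kb of the start were richer in G and C after si-Uc003xsl.1, with medians of 70.3% (960 windows) and 70.7% (764 windows) in replicates 1 and 2, against 47.7% (27 windows) and 55.5% (14 windows) in control replicates 1 and 2. Of the 4 listed genes among these, all after si-Uc003xsl.1, the windows of TGFB1 and ITGAV were 77.3% and 70.7% G or C, and those of CDH2 and TNC 67.0% and 57.3%.

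Motifs were counted on both strands of the same windows of 300 bases. The letters CCTCTGA, a stretch of the negative regulatory element described for NKRF, were in 0 of 23 listed windows and in 6.09% of all windows. The E-box CANNTG was in 13 of 23 (56.5%, against 64.5% of all), and its form CACCTG, which ZEB and SNAI factors bind and which every count of CANNTG includes, was in 4 (17.4%, against 19.9%): AXL, ITGA6, S100A4 and ZEB1. CAGAC was in 14 (60.9%, against 44.1%), the GC box GGGCGG in 15 (65.2%, against 58.5%), the AP-1 site TGANTCA in 2 (8.70%, against 5.75%) and the NF-kB consensus in 4 (17.4%, against 12.3%), namely ITGA5, ITGB1, SMAD3 and TGFB1. These matches describe letters in the window, not bound sites.

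No peak was found within 10 kb of 14 listed genes in any library. The other 18 (56.2%) had one in at least 1 list, against 40.7% of other protein-coding genes. The closest summits were 12.007 kb from ZEB2 in control replicate 1 and, in si-Uc003xsl.1 replicate 1, 14.1 kb from TGFBR1 and 21.5 kb from VIM. The largest closest distances were 154 kb at TWIST1, 149 kb at MMP2 and 125 kb at SPARC. A called peak is needed for a gene to count, so signal below the threshold of the caller at these genes was not detectable in these lists. Around the 10 kb limit, the members just inside were PLAUR, MMP14 and SNAI2 at 5.774, 6.503 and 7.072 kb, all in si-Uc003xsl.1 replicate 2, and those just outside were ZEB2 and TGFBR1.

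**Figure D5:**
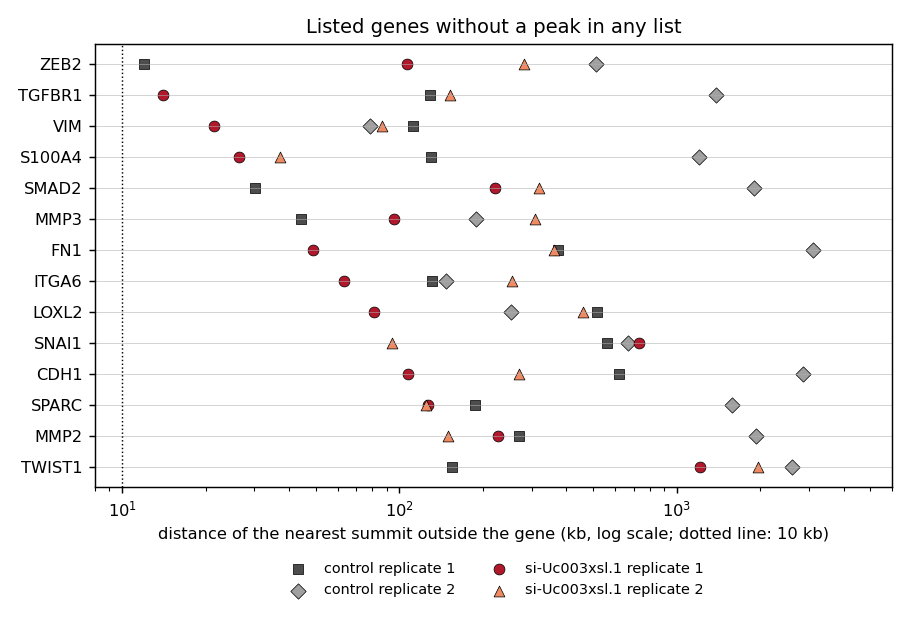
Distance (kb, log scale) from each of the 14 listed genes without a peak to the nearest summit in each library. All points lie to the right of the dotted line at 10 kb, and the closest is ZEB2 at 12.007 kb in control replicate 1.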

How the data were processed

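The submitters' processing notes name Bowtie2, CASAVA 1.4 and the build GRCh38.p11. Per the file headers, the authors called each library against 1 input library, keeping 1 tag per position. MACS 1.4.2 with a p-value limit of 0.0001 made 3 lists, and MACS 2.1.1.20160309 with a q-value limit of 0.05 made that of control replicate 2, per the file headers. The first 3 deposited lists give the count of tags per peak, a score (log10 of the p-value times minus 10), the fold over input as a ratio and a false discovery rate in percent, per the file headers. The authors' values for control replicate 2 are the pileup signal, made by extending tags to 150 bp, the fold, and -log10 p and -log10 q, per the file headers. Heights were not rescaled between lists, except tags per 1000000 filtered tags at TGFB1. Peak coordinates are those of the authors, 1-based, on GRCh38. Input libraries were not analysed here beyond header totals.

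Filtered NKRF tags numbered 19335431 and 8250475 in control replicates 1 and 2 and 18890698 and 11366267 in si-Uc003xsl.1 replicates 1 and 2. Groups and replicates came from sample titles. Genes and promoters came from RefSeq on GRCh38.p14, 20033 protein-coding genes on chromosomes 1 to 22, X and Y; their coordinates served for distances only, except for promoter windows. The table start site can differ from the gene end. Exact two-sided permutation over libraries compared the groups. The assignment of peaks to genes was tested on planted peaks. Members, lists and rules were chosen with earlier results of these data known. All members are accounted for, those with a peak with their values. From 3 other pathway lists (39, 42 and 29 genes), examples are named among genes with a peak in both si-Uc003xsl.1 lists or within 1 kb of an end. Not all genes with a peak within 1 kb of an end are named. The restriction to genes of at least 50 kb was added after seeing the data. Python 3.11.15, numpy 2.4.6, pandas 2.3.3, scipy 1.17.1 and matplotlib 3.10.9 were used.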

Additional observations from a re-analysis of the deposited data

How the results depend on the processing

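Differences are si-Uc003xsl.1 minus control. For the share of listed genes with a peak, the sign turned to -1.56 points with equal lists of the top 902 peaks and to -2.94 with genes of at least 50 kb, and leaving out 1 library gave -4.69 to 20.3. The excess over other genes turned to 2.95 points with peaks of at least 300 bp and ranged from -15.9 to 5.69 when 1 library was left out. Peaks per megabase differed by 0 in gene bodies alone, -0.18 with equal lists and -0.46 with genes of at least 50 kb, and by -1.66 to 2.76 when 1 library was left out. The cause of these changes was not tested. The share of other genes kept its direction under each alternative, at 8.32 to 17.5 points when 1 library was left out. With equal lists, CDH2 (control replicates 1 and 2), ZEB1 (control replicate 2), ITGAV and SNAI2 (si-Uc003xsl.1 replicate 2) had a peak, and TGFB1 did not. The listed shares were then 3.12% and 6.25% in control replicates 1 and 2, against 1.98% and 2.57% of other genes. In si-Uc003xsl.1 replicates 1 and 2 they were 0% and 6.25%, against 4.36% and 4.02%. Without peaks at the smallest tag count, 5 (15.6%) and 2 (6.25%) listed genes had a peak in control replicates 1 and 2, against 5.42% and 2.47% of other genes. In si-Uc003xsl.1 replicates 1 and 2 it was 5 (15.6%) and 9 (28.1%), against 19.1% and 13.9%. Replicate numbers were shared across conditions without a stated pairing, and replicate differences in calls correlated at 0.04 across genes; with the replicate block the differences were the same 7.81, 12.9, -5.10 and 0.55, with exact p = 1 for the listed genes and 0.5 for the others.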
